A study of Rattus norvegicus with 6 samples.

Results

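The CCN proteins and the activin system are secreted signals, and 10 of their genes were examined in rat hippocampal tissue. They are a part of each family, chosen by name with earlier results of these data known. The genes are Ccn1 (formerly Cyr61), Ccn2 (Ctgf) and Ccn3 (Nov), the activin and inhibin subunits Inhba, Inhbb and Inha, the activin antagonist Fst, and the receptors Acvr1, Acvr2a and Acvr2b. Every probe set whose only gene symbol was one of these was kept, which gave 14 of 31099 probe sets, and all 10 genes were found among the 14218 genes of the array. Acvr1 had 3 probe sets, Inhba and Fst had 2 each, and the others had 1.

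The RNA came from organotypic cultures, slices of Wistar rat hippocampus kept alive outside the animal with their local circuits, prepared at postnatal day 4 per the labels. The gabazine cultures received 20 µM gabazine for 90 min, and the control cultures were untreated, with no other allele or agent in either condition. Gabazine is an antagonist of GABA-A receptors, the chloride channels of fast inhibition, and such antagonists are known to raise the excitatory activity of a slice. In each replicate, cultures of 2 littermates were divided between the conditions, and the gabazine array and the control array with the same number are called a pair here, which gave 3 pairs on 6 Affymetrix arrays.

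CCN proteins are modular, cysteine-rich proteins of the extracellular matrix that bind integrins and heparan sulfate and that signal rather than build structure. Ccn1 is known as an immediate early gene, which is transcribed without new protein synthesis. Activin A, a dimer of the Inhba product, belongs to the transforming growth factor beta (TGF-beta) superfamily, binds the type II receptors Acvr2a and Acvr2b, and signals through type I receptors and Smad proteins. In the hippocampus activin A is known to be induced by neuronal activity and to act on dendritic spines and neuronal survival.

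The values are log2 intensities that the authors obtained with Robust Multi-array Average (RMA), so a difference of 1 is a 2-fold change. The array medians were 7.89 and 7.90 in pair 2 and lay between 8.63 and 8.71 in pairs 1 and 3, so levels are compared here within a pair unless said otherwise. The log2 ratio is gabazine minus control of the same pair. Some features of the arrays touch all results below. Pair 1 had the widest ratios, where 1265 probe sets exceeded a 2-fold ratio while only 213 and 99 did so in the other pairs, and with markers of the choroid plexus such as Ttr, Aqp1 and Folr1 at log2 ratios of 4.59, 1.56 and 0.59. The 7 markers of choroid plexus and ependyma had a median of 0.16 in that pair, with 5 higher and 1 lower, and a summed linear intensity of 14649, 5970 and 4966 on the gabazine arrays and 5393, 5036 and 5792 on the control arrays. Bacterial and phage transcripts are added to the sample as hybridization controls. Their 18 probe sets had median log2 ratios of 0.03, -1.75 and -0.05 over the 3 pairs. The value of pair 1 says little, because these controls were dim on both of its arrays. AFFX-CreX-5_at had 3.90 and 3.81 on gabazine array 1 and control array 1, whose lowest values were 3.42 and 3.33. It had 13.84 and 14.66 in pair 2 and 14.37 and 14.41 in pair 3. The brightest control of pair 1, AFFX-BioDn-3_at, had 9.12 and 9.05 there. The cause was not tested. In pair 1, the 5' probe sets of beta-actin, GAPDH and hexokinase had log2 ratios of 2.17, 0.53 and 2.10, where their 3' probe sets had 0.47, 0.03 and 1.72. Exact ties between the gabazine and the control array made up 16.1%, 24.1% and 25.7% of all probe sets in pairs 1, 2 and 3, and 5 of the 14 CCN and activin probe sets had such a tie. Hippocampal cell types were described by their markers. Above the array median on all 6 arrays were 6 of 7 genes of excitatory neurons, 7 of 8 of GABAergic interneurons and 8 of 8 of astrocytes. So were 7 of 9 genes of oligodendrocytes, 6 of 9 of microglia and 8 of 9 of meningeal cells and fibroblasts. For choroid plexus and ependyma it was 3 of 7, and for vascular cells 0 of 9. The share of all genes above the median on all arrays was not counted. In pair 2 the 7 excitatory neuron markers had a median log2 ratio of 0.53, with 5 higher, 1 tied and 1 lower. Their summed linear intensity was 14493 on gabazine array 2 and 8888 on control array 2. The median was -0.01 in pair 1 and 0.13 in pair 3. The part of this in the ratios of pair 2, Inhba among them, was not tested. In tissue RNA, fewer cells of a type and less RNA per cell cannot be told apart.

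Ccn1 had the highest mean ratio of the 10 genes and the only 1 above 1 on the log2 scale. Its intensities (probe set 1368290_at) were 9.05, 10.14 and 11.55 on the gabazine arrays of pairs 1, 2 and 3, against 7.89, 9.26 and 9.01 on the control arrays. Each gabazine array stood above its own control, although gabazine array 1 was below control array 2 in absolute level. The log2 ratios were 1.17, 0.87 and 2.54, with a mean of 1.53 ± 0.89 (SD, n = 3 pairs), which is 2.88-fold. In pair 3 only 12 of all 31099 probe sets had a higher ratio, against 291 in pair 2 and 933 in pair 1. In limma, a linear model with moderated variances fitted to all probe sets with the pair as a block, the unadjusted p was 0.0386 and the Benjamini-Hochberg adjusted p was 0.747.

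Ccn2, a close relative of Ccn1 known from fibrosis and wound repair, had ratios close to 0. It had 13.37, 11.47 and 11.00 on the gabazine arrays and 13.23, 11.48 and 11.24 on the control arrays. The log2 ratios of 0.13, -0.01 and -0.24 straddled 0 and averaged -0.04 ± 0.19 (SD, n = 3 pairs), with a limma adjusted p of 0.890. Its level differed far more between pairs than within them, being high on both arrays of pair 1. The summed linear intensity of 9 markers of meningeal cells and fibroblasts, cells that can make Ccn2, was 64380, 16364 and 13234 on the gabazine arrays and 49245, 7621 and 15659 on the control arrays, and its part in the level of Ccn2 was not tested. The sources used here do not state whether RMA was run on the 3 pairs jointly. The array medians differed between pairs, so levels of different pairs may not share a scale. Relative to the median of its own array, Ccn2 stood at 4.66, 3.58 and 2.32 on the gabazine arrays. On the control arrays it stood at 4.60, 3.59 and 2.53.

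Ccn3, a member of the family often described as a brake on growth, was higher after gabazine in pairs 1 and 2 and nearly level in pair 3. It had 11.67, 10.30 and 10.97 on the gabazine arrays and 11.07, 9.30 and 10.95 on the control arrays. The log2 ratios were 0.61, 1.00 and 0.02, with a mean of 0.54 ± 0.49 (SD, n = 3 pairs), and the limma adjusted p was 0.747. Without pair 2 the mean was 0.31. The 9 meningeal and fibroblast markers had median ratios of 0.40, 0.75 and -0.31 on the log2 scale over the 3 pairs, and their part in the ratio of Ccn3 was not tested. They did not move as 1 group, since 8, 6 and 1 of the 9 were higher in pairs 1, 2 and 3, and Lum had -0.30, -0.29 and -0.31 while Dcn had 0.16, -1.24 and -0.79.

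**Figure D1:**
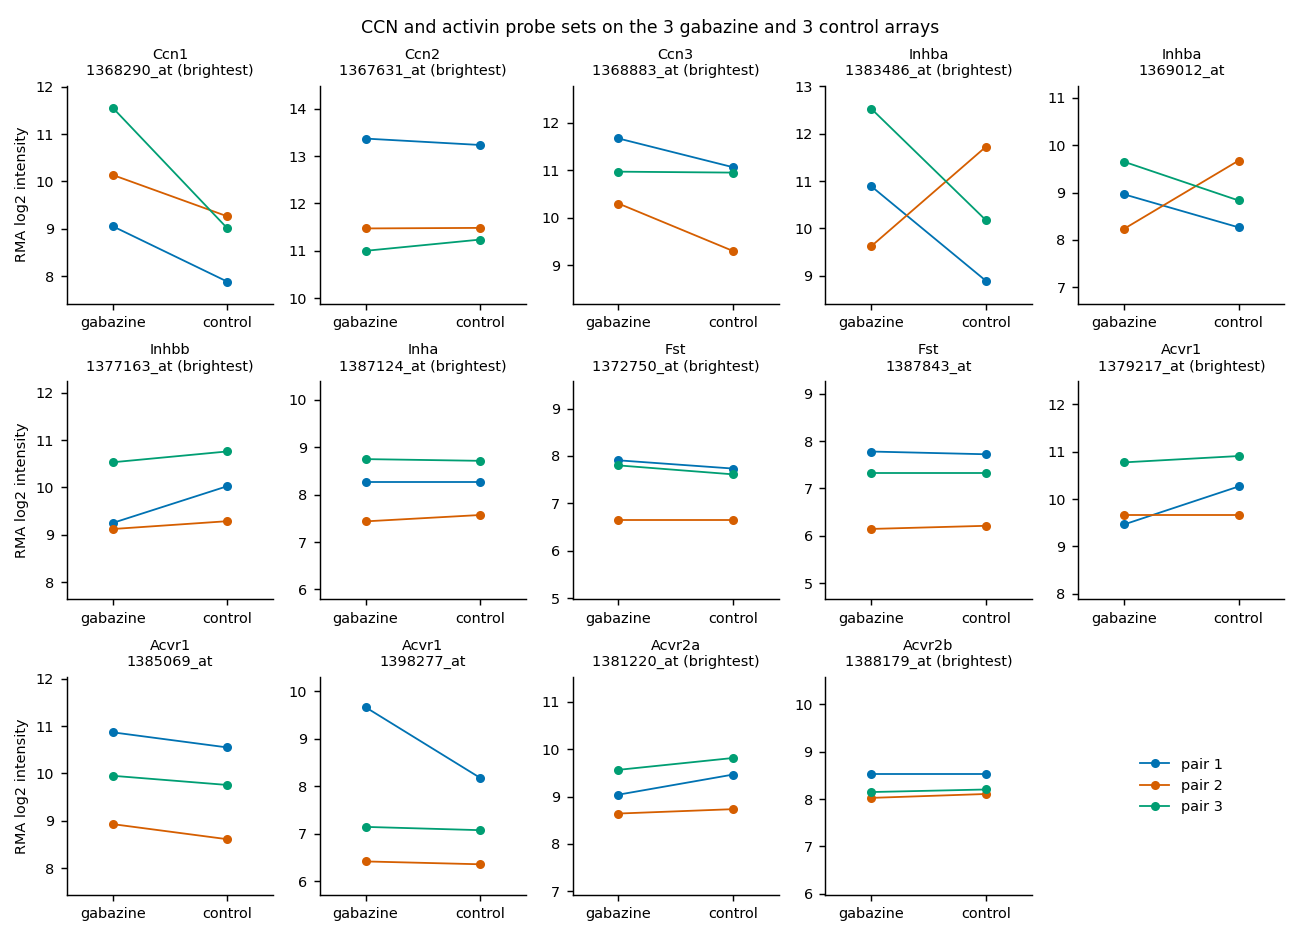
RMA log2 intensity of each CCN and activin probe set on the gabazine arrays (left) and the control arrays (right), with 1 line per pair and the same span of the vertical axis in every panel. Ccn1 lies higher on the gabazine array in all 3 pairs, while both Inhba probe sets cross, since pair 2 runs the opposite way to pairs 1 and 3.

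The promoters of Ccn1, Ccn2 and Inhba are shown because these genes gave the contrasts within the families, and because Ccn1 is studied as a target of the serum response factor (SRF) and of the YAP and TEAD factors. The RefSeq sequences of build GRCr8 cover 250 bases before to 50 bases after the annotated start and were found for 7 of the 10 genes. All 3 run 5′ to 3′ along the gene and lie on the minus strand, Ccn1 at chr2:237225640-237225939, Ccn2 at chr1:22624565-22624864 and Inhba at chr17:53804459-53804758. Capitals mark a TEAD site (GGAATG or, on the other strand, CATTCC), the short core of a cAMP response element or CRE (TGACG or CGTCA) and a TATA box (TATAAA or TTTATA).
Ccn1: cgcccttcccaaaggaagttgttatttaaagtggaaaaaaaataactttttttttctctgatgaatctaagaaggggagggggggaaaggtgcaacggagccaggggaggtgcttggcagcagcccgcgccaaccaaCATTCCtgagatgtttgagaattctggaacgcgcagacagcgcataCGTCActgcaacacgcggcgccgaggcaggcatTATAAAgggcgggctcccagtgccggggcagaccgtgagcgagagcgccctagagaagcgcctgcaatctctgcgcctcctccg
Ccn2: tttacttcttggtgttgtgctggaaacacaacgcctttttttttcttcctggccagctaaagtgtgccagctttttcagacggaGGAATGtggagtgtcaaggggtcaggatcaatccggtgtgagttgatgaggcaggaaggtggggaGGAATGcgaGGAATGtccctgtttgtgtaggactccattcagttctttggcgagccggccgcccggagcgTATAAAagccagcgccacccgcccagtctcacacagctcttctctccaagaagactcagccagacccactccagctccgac
Inhba: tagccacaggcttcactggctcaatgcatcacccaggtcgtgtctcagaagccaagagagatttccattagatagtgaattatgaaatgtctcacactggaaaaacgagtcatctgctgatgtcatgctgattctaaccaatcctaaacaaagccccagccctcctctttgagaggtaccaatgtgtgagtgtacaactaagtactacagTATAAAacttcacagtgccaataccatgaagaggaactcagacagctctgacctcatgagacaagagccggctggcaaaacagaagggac

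The Ccn1 window held 1 TEAD site, which starts 113 bases before the annotated start, and 1 CRE core, which starts 67 bases before it. The Ccn2 window held 3 TEAD sites and no CRE core, and both windows held a TATA box. The Inhba window held a TATA box and none of the other motifs. Of 33469 promoter windows of this length, 14.2% held a TEAD site, 21.2% a CRE core and 14.2% a TATA box, so such matches are common. The CArG box that SRF binds was in 1.64% of the windows, and a full CRE, TGACGTCA, which contains the core, was in 1.83%. An AP-1 site (TGACTCA or TGAGTCA) was in 4.63% and an EGR site (GCGTGGGCG or its complement) in 0.544%. None of these 4 motifs was found in the 7 windows, which says only that the letters are not there.

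Inhba, which encodes the subunit of activin A, had the widest spread of all members. Its brightest probe set, 1383486_at, had 10.89, 9.63 and 12.53 on the gabazine arrays of pairs 1, 2 and 3, against 8.90, 11.72 and 10.18 on the control arrays. In pairs 1 and 3 the gabazine array was the higher one, and in pair 2 the control array was. The log2 ratios were 1.99, -2.10 and 2.35, so the mean of 0.75 ± 2.47 (SD, n = 3 pairs) describes none of the pairs. The limma adjusted p was 0.814, and without pair 2 the mean was 2.17 with an adjusted p of 0.679.

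A single probe set of 31099 had a lower ratio there, that of a bacterial hybridization control with -2.10, so Inhba had the lowest ratio of all rat transcripts measured in pair 2. In pair 3 only 16 probe sets had a higher ratio than Inhba, and in pair 1 there were 218. Relative to the median of its own array, Inhba stood at 2.18, 1.74 and 3.85 on the gabazine arrays and at 0.27, 3.83 and 1.47 on the control arrays, so control array 2 was nearly as high as the highest gabazine array. The hybridization controls, which do not come from the tissue, were also lower on gabazine array 2 than on control array 2, by a range of -2.10 to -0.41 on the log2 scale, and their part in the ratio of Inhba was not tested.

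The other Inhba probe set, 1369012_at, designed on the reference transcript, showed the same order at smaller size. It had 8.96, 8.23 and 9.65 on the gabazine arrays and 8.26, 9.67 and 8.83 on the control arrays. The log2 ratios were 0.70, -1.44 and 0.82, with a mean of 0.02 ± 1.27 (SD, n = 3 pairs). Both probe sets therefore reversed in the same pair.

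Inhbb, the subunit of activin B, was lower after gabazine in all 3 pairs. It had 9.25, 9.12 and 10.53 on the gabazine arrays and 10.03, 9.29 and 10.76 on the control arrays, and the 2 groups overlapped. The log2 ratios were -0.77, -0.17 and -0.23, with a mean of -0.39 ± 0.34 (SD, n = 3 pairs) and a limma adjusted p of 0.747. Without pair 1, where the difference was largest, the mean was -0.20. Inha, the alpha subunit that turns an activin dimer into an inhibin, had 8.26, 7.44 and 8.75 on the gabazine arrays and 8.26, 7.57 and 8.71 on the control arrays. Its mean log2 ratio was -0.03 ± 0.09 (SD, n = 3 pairs), and the values of pair 1 were tied.

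Fst, follistatin, which binds activin and keeps it from its receptors, stood below the array median on all 6 arrays with both probe sets. The brighter one had 7.91, 6.65 and 7.80 on the gabazine arrays and 7.73, 6.65 and 7.61 on the control arrays, with a tie in pair 2. The mean log2 ratio was 0.12 ± 0.10 (SD, n = 3 pairs), and the other probe set had 0.00 ± 0.06. The table has no detection measure, so it is not known how far Fst was above background.

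**Figure D2:**
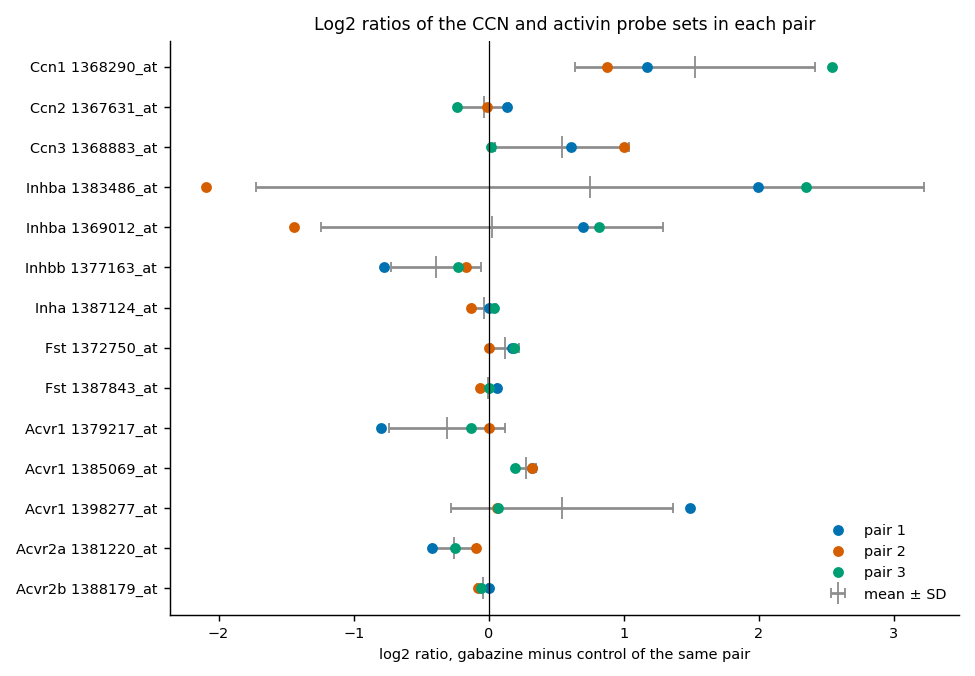
Log2 ratio of gabazine over control for each of the 14 probe sets, with 1 point per pair and the mean ± SD of 3 pairs in grey. Ccn1 has all points to the right of 0, Inhba has points at 1.99 and 2.35 and at -2.10, and all points of Inha and Acvr2b lie between -0.13 and 0.04.

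Among the receptors, Acvr2a was lower after gabazine in all 3 pairs. This type II receptor, which binds activin directly, had 9.04, 8.64 and 9.56 on the gabazine arrays and 9.46, 8.73 and 9.81 on the control arrays. Its log2 ratios were -0.42, -0.09 and -0.25, with a mean of -0.26 ± 0.17 (SD, n = 3 pairs) and a limma adjusted p of 0.747. Acvr2b, its paralog, had 8.54, 8.02 and 8.15 on the gabazine arrays and 8.54, 8.11 and 8.20 on the control arrays. The mean log2 ratio of Acvr2b was -0.05 ± 0.04 (SD, n = 3 pairs), with a tie in pair 1.

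The 3 probe sets of Acvr1, a type I receptor best known for bone morphogenetic protein signals, disagreed in direction. The brightest, 1379217_at, had log2 ratios of -0.80, 0.00 and -0.13, with 9.46, 9.65 and 10.77 on the gabazine arrays and 10.27, 9.65 and 10.91 on the control arrays. The next, 1385069_at, had 0.32, 0.32 and 0.19, with 10.87, 8.93 and 9.95 on the gabazine arrays and 10.55, 8.61 and 9.76 on the control arrays. These close ratios gave a mean of 0.28 ± 0.07 (SD, n = 3 pairs) and an unadjusted p of 0.00909, with an adjusted p of 0.747 in limma. The dimmest, 1398277_at, designed on the reference transcript, had ratios of 1.49, 0.06 and 0.07, with 9.67, 6.41 and 7.14 on the gabazine arrays and 8.18, 6.35 and 7.07 on the control arrays. No direction is therefore given for Acvr1, and pair 1, where the probe sets differed most, is also the pair with the unequal 5' and 3' ratios of the control transcripts, whose part in this was not tested.

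Across the whole array limma called 0 probe sets at an adjusted p under 0.05 (0%), the lowest adjusted value being 0.468. By the unadjusted p of limma at 0.05, 2 of the 14 CCN and activin probe sets were higher, those of Ccn1 and Acvr1, where 1.84% of all probe sets were higher, and 0 were lower, where 2.68% of all were. Higher in all 3 pairs were 4 of the 14, against 6.92% of all, and lower in all 3 pairs were 2, against 9.49%. A mean log2 ratio above 0.5 was found for 4 of the 14, those of Ccn1, Ccn3, Inhba and the dimmest of Acvr1, and for 2.31% of all probe sets. Of these only Ccn1 stayed above 0.5 whichever pair was left out, since Ccn3 had 0.31 without pair 2, Inhba had -0.052 without pair 3 and the Acvr1 probe set had 0.065 without pair 1. Without pair 1 the count was 2 of the 14, those of Ccn1 and Ccn3, against 0.942% of all. The median of the 14 mean log2 ratios was 0.01, and that of all probe sets was 0.00. With the brightest probe set of each gene, 2 of the 10 genes were higher in all pairs, Ccn1 and Ccn3, against 7.79% of 14218 genes, and 2 were lower, Inhbb and Acvr2a, against 10.8%.

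The genes around these families were described with 10 lists, which held 100 further measured genes. By the unadjusted p of limma at 0.05, 3 of these 100 were higher and 3 were lower, beside 2.37% and 2.84% of all genes, and 0 passed the adjusted threshold. The 3 higher genes were Srf, Gadd45a and Nbl1, and the 3 lower were Smurf2, Smad9 and Itgb2. Higher in all 3 pairs were 10 of the 100 and lower were 9, beside 7.79% and 10.8% of all genes. The median of their mean log2 ratios was -0.01, against -0.01 for all genes.

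Among the SRF, MRTF, YAP and TEAD regulators, which are linked to Ccn1, the highest gene was Srf. It had log2 ratios of 0.56, 0.62 and 0.57, with a mean of 0.58 ± 0.03 (SD, n = 3 pairs). The limma p of Srf was 0.000421 unadjusted and 0.747 adjusted. The lowest gene of this list, Lats1, a kinase of the Hippo pathway that restrains YAP, had -0.20. The median of the 13 regulators was -0.05. Of 10 other YAP target genes, the highest was Gadd45a, a stress sensor of growth arrest, with 0.55 ± 0.32, and the lowest was Amotl2 with -0.15, with a median of -0.01. Among the 6 members of the CCN family, the 3 not yet named, Ccn4, Ccn5 and Ccn6, had 0.05, 0.23 and 0.06. The lowest of 13 CCN receptors was Itgb2, the beta subunit of leukocyte integrins, with -0.40 ± 0.24, the highest was Lrp6 with 0.76, 0.20 and -0.06 in the pairs, and the median was -0.02. Other matricellular proteins had a median of 0.01 over 11 genes, with Spp1, osteopontin, lowest at 0.48, -0.40 and -0.91 in the pairs and Hapln1 highest at 0.84, 0.21 and -0.02.

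On the activin side, the 15 Smads and their regulators had a median of -0.07. Smurf2, a ubiquitin ligase that removes Smads and receptors, had log2 ratios of -0.16, -0.41 and -0.40, and Smad9, a Smad of the bone morphogenetic protein branch, had -0.34, -0.23 and -0.20. Smad2 and Smad3, which carry the activin signal, had -0.07 and -0.09. Smad7, an inhibitory Smad, had 0.22, 0.09 and 0.58, while the highest of the list, Smad6, had 1.38, -0.07 and 0.04 with a mean of 0.45 that was -0.016 without pair 1. Among 13 follistatin relatives and other extracellular inhibitors, Igsf1 had -0.25 and Sostdc1, an inhibitor of bone morphogenetic proteins, had 0.48 with 0.78, 0.52 and 0.14 in the pairs. Among 9 measured receptors Acvr1 was lowest by its brightest probe set, with -0.31, but had 0.17 as the mean of its probe sets. The highest receptor, Acvr1c, had 1.21, -0.31 and 0.00, with a mean of 0.30 that was -0.15 without pair 1. The part of the wider ratios and choroid plexus markers of pair 1 in the values of Smad6, Acvr1c and the dimmest probe set of Acvr1 was not tested. Among 16 other ligands the ends were Gdf10, with -0.41, 0.23 and -0.43, and Mstn, with 0.59, 0.12 and -0.04. Inhbc and Inhbe, the other subunits of the activin family, had -0.15 and -0.02.

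**Figure D3:**
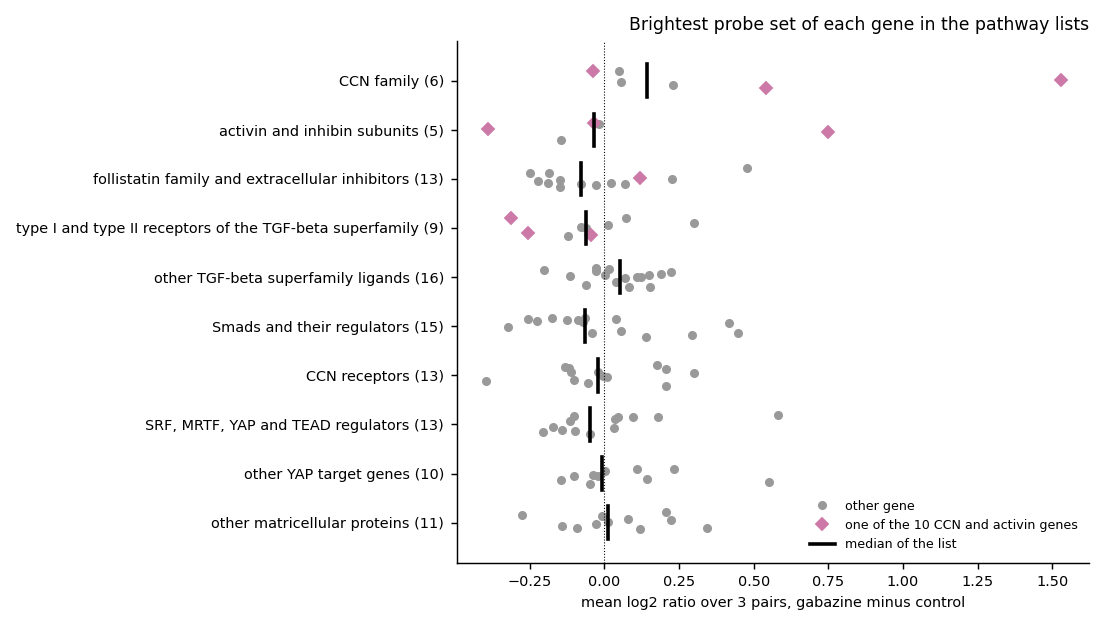
Mean log2 ratio over 3 pairs of the brightest probe set of each gene in the 10 pathway lists, with the number of genes in brackets and the median of each list as a black bar. The medians lie between -0.08 and 0.14, and Ccn1 at 1.53 and Inhba at 0.75 are the points furthest to the right.

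The genes with the pattern most like Ccn1 were sought by the Euclidean distance of the 3 log2 ratios, over the brightest probe sets of 14217 other genes. The closest was Rnf39, a RING finger protein, with 0.67, 0.96 and 1.79 and a distance of 0.91. It was followed by the zinc finger factor Egr1 with 1.25, 1.07 and 1.63, by Ptgs2, the inducible enzyme of prostaglandin synthesis, with 1.01, 1.51 and 3.37, by the immediate early gene Ier2 with 1.67, 0.92 and 1.57, and by the leucine zipper factor Nfil3 with 1.71, 0.24 and 1.80. That all 5 were higher in every pair follows from how they were sought. For Ccn3 the closest gene was Kdr, a receptor of vascular endothelial growth factor, with 0.73, 1.08 and 0.09 and a distance of 0.17, followed by Sned1, H4f3, Gng11 and Olfml2a at distances of 0.25 to 0.31. Of 9 markers of vascular cells, Kdr among them, 0 stood above the array median on all arrays.

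The same search for Inhba was added after its values had been seen. The closest genes were Gprc5a, an orphan receptor, with 1.11, -1.26 and 1.41, Hbegf, a ligand of the epidermal growth factor receptor, with 0.90, -1.58 and 1.23, Fosl1, a Fos family partner in AP-1, with 0.89, -1.36 and 1.29, Vgf, a neuropeptide precursor, with 1.22, -1.79 and 0.81, and Hspa1a, an inducible heat shock protein, with 0.25, -1.81 and 1.95. The search itself favours genes with the signs of Inhba, so the shared signs are no separate result. At distances of 1.54 to 1.81, none came near Inhba over the 3 pairs together. Single ratios, such as -1.81 and 1.95 of Hspa1a in pairs 2 and 3, came closer to its size. The signs of Inhba were then counted over all 31099 probe sets. A log2 ratio above 1 in pairs 1 and 3 and below -1 in pair 2 was held by 2, those of Inhba and Gprc5a. A ratio above 1 in all 3 pairs was held by 32. At a cutoff of 0.5 the 2 counts were 19 and 82, and at a cutoff of 2 they were 0 and 9. The pattern was taken from Inhba itself, so its own place in the count is no separate result. Gdf15, a stress-induced ligand of the same superfamily as activin, had 0.58, -1.25 and 1.05, and Pmepa1, a target of TGF-beta signals, had 0.17, -1.06 and 0.21. Both were named after their values had been seen. Genes of the same lists did not all share these signs. Smad7 had 0.22, 0.09 and 0.58, while the ligand Tgfb3 had 0.06, -0.21 and 0.07.

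**Figure D4:**
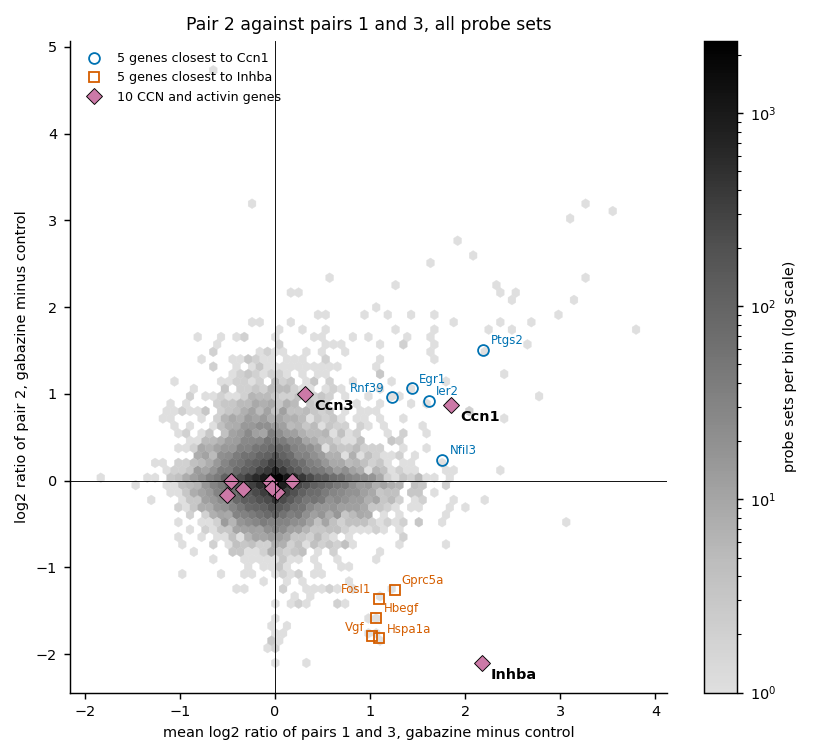
Log2 ratio in pair 2 (vertical) against the mean log2 ratio of pairs 1 and 3 (horizontal) for all probe sets, shaded by their number on a log scale, with the 10 CCN and activin genes as diamonds on their brightest probe sets and the 5 genes closest to Ccn1 and to Inhba as open symbols. Ccn1 lies at the upper right with Egr1 and Ptgs2, and Inhba lies at the lower right, at -2.10 in pair 2 and 2.17 over pairs 1 and 3.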

How the data were processed

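The deposited table holds log2 intensities, which the authors made with RMA from the scanned Affymetrix RAT2302 arrays, 3 for gabazine and 3 for control. The sources used here name no version of RMA. No further scaling was applied, and the table has no detection measure. Groups and replicate numbers came from the sample titles. The methods compare each replicate with its own control, so the number was a block in limma 3.58.1 (R 4.3.3), followed by eBayes and Benjamini-Hochberg adjustment over 31099 probe sets at 0.05. Per the series' design, a replicate is made of cultures of the same littermates. Arrays with the same number deviated together from their group means, with correlations of 0.794, 0.664 and 0.853. Arrays processed together would also deviate together, so these correlations cannot show which arrays shared littermates. The fit has 2 residual degrees of freedom, and with 3 pairs the smallest p of an exact sign-flip test is 0.25. The procedure was tested on simulated data.

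Genes were named from the platform annotation, by probe sets with 1 symbol (20832, against 436 with several and 9831 with none), and a gene with several probe sets is given by the one with the highest mean unless stated. The members and lists were chosen with earlier results of these data known. The text names all members, the highest and lowest gene of each pathway list, and the 5 genes closest in their ratios to any member whose mean was above 0.5 with 1 direction in all pairs. Other genes named, such as Gdf15, Pmepa1, Smad7, Smad9, Nbl1 and the remaining members of a family, were chosen after their values were seen. Alternatives were no block, a pair left out, 3 scalings, filters, other moderation and a joint share modelled on the methods' joint distribution. Plots were drawn with matplotlib 3.10.9.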

Additional observations from a re-analysis of the deposited data

How the results depend on the processing

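In limma, 0 of the 14 CCN and activin probe sets passed the adjusted threshold under any fit run. Of 86 alternative values of a gene's mean log2 ratio, 80 kept their sign. The values without the block repeat the main mean by construction, so their agreement carries no information. The 3 scalings moved the median ratio of the array little, with median shifts of -0.015, -0.012 and 0.003. Under them 5, 3 and 5 of the 14 CCN and activin probe sets were higher in all pairs, against 4 without further scaling. Lower in all pairs were 3 under each, against 2. The shares of all probe sets under these scalings were not counted. The 6 reversed values all came from leaving out a pair or from using other probe sets of the gene. Without the replicate block, 14 probe sets were called over the whole array, against 0 with it. At the unadjusted p the count was then 1 of the 14 CCN and activin probe sets, against 2. It was 0 of the pathway genes, against 6. The share of all probe sets at the unadjusted p was not counted in this fit or in those with a pair left out. Their counts at the unadjusted p can therefore not be set against the array. A joint share modelled on the methods' joint distribution was also taken, without the Kaplan-Meier estimator that the methods name. It asks what share of probe sets is at least as extreme in all 3 pairs and calls shares of 0.005 or less. Of all 31099 probe sets it called 1687 higher and 2265 lower. Among the 14 CCN and activin probe sets it called 5 and 3, and among the 100 other pathway genes 6 and 9. Both Inhba probe sets were called in both directions, so a call by this rule gives no direction. It called far more of the array than its threshold of 0.005, so it is not a calibrated test. Leaving out a pair in turn gave 1 to 3 CCN and activin probe sets at the unadjusted p (1 without pair 1), 4 to 7 higher in both remaining pairs (7 without pair 2, against 19.6% of all probe sets there) and 2 to 4 lower in both (4 without pair 1, against 14.6%), where fewer pairs also let more of the array share a sign. Chosen after seeing the data, the same was done for a mean log2 ratio above 0.5, which held for 2 to 4 of the 14 (2 without pair 1), and for the ends of the pathway lists, of which Acvr1c ran between -0.15 and 0.60, Smad6 between -0.016 and 0.71 and Spp1 between -0.65 and 0.042. The mean log2 ratio then ran between -0.12 and 0.062 for Ccn2, between -0.052 without pair 3 and 2.17 without pair 2 for Inhba, and between -0.067 and 0.018 for Inha, while Ccn1 ran between 1.02 and 1.86. Taking the dimmest probe set gave -0.0028 for Fst and 0.54 for Acvr1, and averaging the probe sets of Acvr1 gave 0.17. Inhba had 0.39 as the mean of its probe sets and 1.63 by the arithmetic mean of its linear ratios. With no detection measure, how far dim genes such as Fst, Inhbc and Ccn6 stood above background is unknown.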
